A study of Mus musculus with 9 samples.

Results

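Immediate early response genes are transcribed within minutes of a stimulus without the need for new protein. The 10 genes described here are *Fos*, *Fosb*, *Jun*, *Junb*, *Egr1*, *Egr2*, *Atf3*, *Ier2*, *Dusp1* and *Nr4a1*, matched by symbol. Each matched 1 row of the 56748 gene rows in the count table, and all 10 were among the 18510 genes that reached the expression minimum of 0.5 in at least 1 library, in CPM, which are counts scaled to a common library size by TMM factors. The study followed epididymal adipose tissue, the fat pad beside the epididymis, of male wild-type (WT) C57BL/6J mice during weight loss. In the phase before weight loss (Pre), mice received high-fat diet (HFD) from 8 weeks of age over a period of 8 weeks. In WL1 and WL2, the same HFD period was followed by standard diet (SD) for 1 and 2 weeks, respectively. RNA-sequencing was performed on 3 libraries per phase, 9 in all, and every phase shared the HFD period, so that no lean group is compared here. On this schedule, WL1 and WL2 mice were 1 and 2 weeks older than Pre mice. None of the 9 libraries came from mice kept on HFD for those weeks, so that diet and age cannot be told apart.

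In the usual account of these genes, MAP kinase, calcium or cyclic AMP signals activate transcription factors already bound at their promoters, such as serum response factor and CREB. The products of *Fos*, *Fosb*, *Jun* and *Junb* pair to form the dimeric transcription factor AP-1, and *Atf3* encodes a stress-induced member of the related ATF/CREB family. *Egr1* and *Egr2* encode zinc finger transcription factors, *Nr4a1* an orphan nuclear receptor, *Ier2* a small nuclear protein, and *Dusp1* a phosphatase that removes phosphate from MAP kinases and so limits the signal. In adipose tissue these transcripts are made by adipocytes, stromal cells, endothelium and macrophages alike. In whole tissue, fewer cells of a type and less RNA per cell cannot be told apart.

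The libraries held 16434450 to 22729072 counted reads, of which 6309 to 20207 fell on the 10 genes. The marker genes of adipocytes were abundant in every phase, with the adipokine gene *Adipoq* at 2760 ± 612 CPM in Pre, 2020 ± 341 CPM in WL1 and 3180 ± 326 CPM in WL2 (SD, n = 3), and of 6 epididymis marker genes only 1 reached the expression minimum.  Replicate 2 of Pre stood apart in its lymphocyte markers, whose summed level was 168 CPM there and 4.25 to 15.3 CPM in the other 8 libraries. The labels number the libraries within a phase and do not state that each is a separate animal, so that p-values measure only the spread between these samples. The depth allowed every member to be counted in every library, the lowest count being 45 reads for *Fosb* in Pre replicate 1.

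After 1 week of SD, *Fos*, *Atf3* and *Dusp1* rose, by 2.83-, 3.78- and 1.91-fold against Pre, and after 2 weeks none of the 10 genes differed from Pre past the threshold. Among the 3 phases, 4 of the 10 genes differed (edgeR quasi-likelihood test, Benjamini-Hochberg adjusted p = 0.0141 for *Dusp1*, 0.0217 for *Fos*, 0.0365 for *Atf3* and 0.0422 for *Egr2*), against 13.1% of all genes tested. In each of these 4 genes the mean was highest in WL1. The other 6 genes did not pass this test, with adjusted p from 0.116 for *Egr1* to 0.832 for *Fosb*. The summed level of the 10 genes was 372.1, 521.6 and 575.9 CPM in Pre replicates 1, 2 and 3, 861.8, 771.2 and 1136 CPM in WL1, and 648.9, 526.2 and 606 CPM in WL2. The sums of the 3 WL1 libraries thus lay above those of the other 6 libraries, while the Pre and WL2 sums overlapped.

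**Figure D1:**
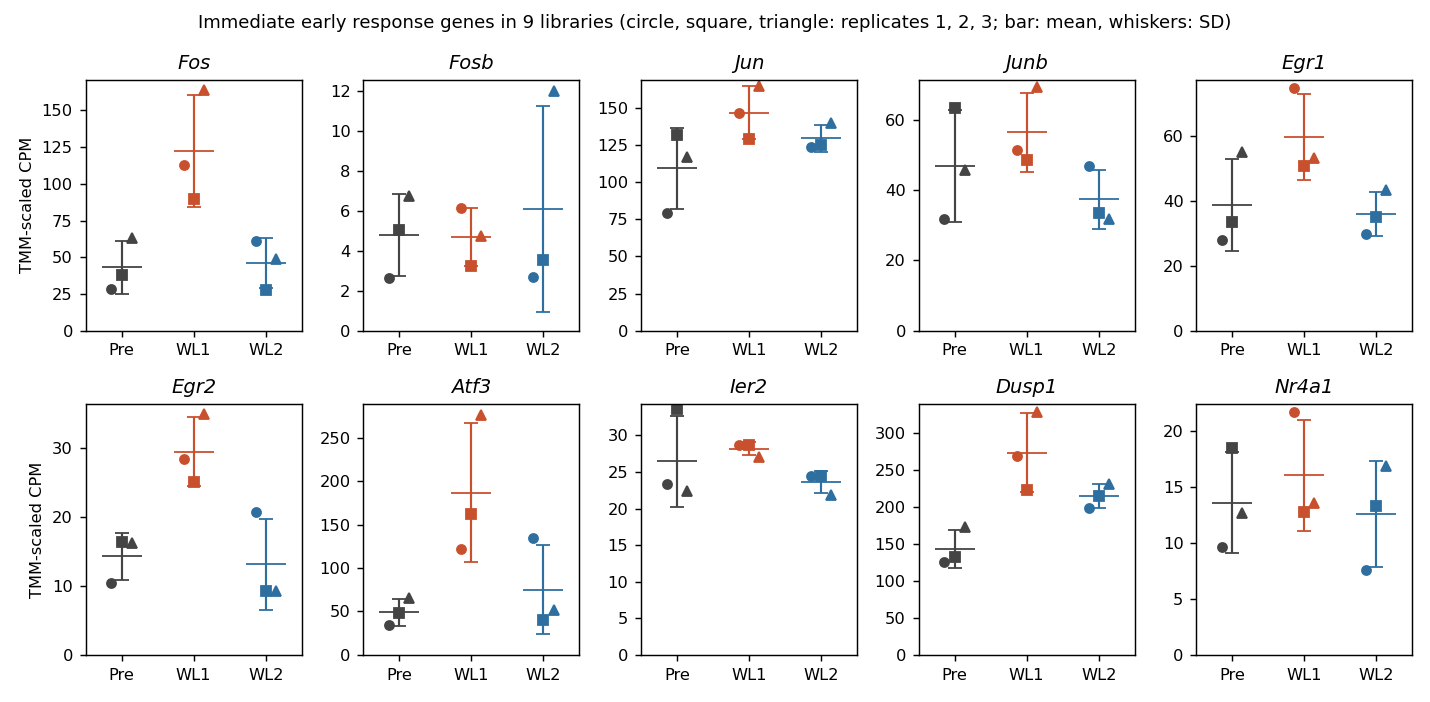
Level of each gene in TMM-scaled CPM (linear axis from 0) in the 3 libraries of Pre, WL1 and WL2. Points are libraries, horizontal bars are phase means and whiskers are SD (n = 3). The WL1 points of *Fos*, *Egr2*, *Atf3* and *Dusp1* lie above all Pre points, and *Fosb* has its highest point in WL2 replicate 3, at 12 CPM.

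*Fos* encodes the AP-1 subunit that cannot bind DNA without a partner. Its level was 28.3, 37.9 and 63.1 CPM in Pre replicates 1, 2 and 3, 113, 89.6 and 164 CPM in WL1, and 61.3, 27.9 and 48.5 CPM in WL2. The WL1 libraries were all higher than the Pre and WL2 libraries, and Pre and WL2 covered nearly the same range. The log2 fold change of WL1 against Pre was 1.5 (SE 0.35, adjusted p = 0.0309 by edgeR). Without Pre replicate 1 or 2, or without WL1 replicate 1 or 3, it was 1.27, 1.41, 1.55 and 1.22, and the adjusted p ran from 0.0642 to 0.107 in these 4 fits.

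*Atf3* encodes a transcription factor induced by many forms of cell stress. It was present at 34.1, 48.7 and 65.1 CPM in Pre replicates 1, 2 and 3, at 122, 162 and 276 CPM in WL1, and at 134, 39.8 and 51.3 CPM in WL2. The WL1 libraries did not overlap with Pre, whereas WL2 replicate 1 lay within the WL1 range and the other two WL2 libraries lay within the Pre range. The rise at WL1 was 1.92 on the log2 scale (SE 0.46, adjusted p = 0.0339 by edgeR). This call was also lost when any of 4 libraries was left out, namely Pre replicate 1 or 2 (1.71 and 1.91) or WL1 replicate 2 or 3 (2.01 and 1.51), with adjusted p from 0.0655 to 0.112.

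*Dusp1* was the most abundant member per transcript length in Pre and WL2. The 3 Pre libraries held 125, 132 and 172 CPM, the WL1 libraries 269, 222 and 328 CPM, and the WL2 libraries 198, 214 and 231 CPM, in replicate order. Every library of WL1 and WL2 was above every Pre library, and WL1 and WL2 overlapped. The log2 fold change was 0.93 at WL1 (SE 0.17, adjusted p = 0.0106 by edgeR) and 0.59 at WL2 (SE 0.17, adjusted p = 0.0502), the latter just outside the threshold. The WL1 difference passed in each of 9 fits that left out 1 library, with values from 0.77 to 1.09. At WL2, the adjusted p fell below 0.05 without Pre replicate 3 (0.74) and without WL1 replicate 2 or 3 (0.59 and 0.60).

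*Egr2* has known roles in myelination and in immune cells. Levels of 10.4, 16.4 and 16.2 CPM in Pre replicates 1, 2 and 3 compared with 28.4, 25.1 and 35.0 CPM in WL1 and 20.8, 9.35 and 9.32 CPM in WL2. WL1 lay above both other phases, and WL2 replicate 1 was the highest library outside WL1. The mean was 2.06-fold that of Pre at WL1, with a log2 fold change of 1.04 (SE 0.31) that did not pass in the pairwise test (adjusted p = 0.0687 by edgeR) and did pass without WL2 replicate 1 (1.04, adjusted p = 0.0131).

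RefSeq promoter windows, which run from 250 bases before to 50 bases after an annotated start, were found for 8 of the 10 genes on GRCm38.p6. *Egr1* and *Ier2* were not matched. The upstream parts of the windows of the 4 genes that differed among the phases are given here because the results turn on these genes. Capitals mark the letters TGACGT on either strand (ACGTCA on the other), which form the core of the cyclic AMP response element TGACGTCA, and the CArG box to which serum response factor binds. The *Fos* window is chr12:85473640-85473889 (plus strand), the *Egr2* window, for the third of its 5 listed starts, is chr10:67537619-67537868 (plus strand), the *Atf3* window is chr1:191183334-191183583 (minus strand), and the *Dusp1* window is chr17:26508520-26508722 (minus strand), the last ending 47 bases short of the start because an exon of another GENCODE M21 transcript of the gene lies there.
Fos: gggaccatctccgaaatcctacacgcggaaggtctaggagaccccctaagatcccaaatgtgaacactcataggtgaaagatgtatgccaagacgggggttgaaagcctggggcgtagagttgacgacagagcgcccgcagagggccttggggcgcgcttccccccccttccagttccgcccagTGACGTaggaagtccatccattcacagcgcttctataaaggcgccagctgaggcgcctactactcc
Egr2: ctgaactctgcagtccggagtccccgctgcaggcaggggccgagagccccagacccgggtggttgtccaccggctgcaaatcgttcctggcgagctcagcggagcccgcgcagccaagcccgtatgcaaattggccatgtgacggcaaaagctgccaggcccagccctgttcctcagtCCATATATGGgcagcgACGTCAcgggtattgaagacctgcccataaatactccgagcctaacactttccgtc
Atf3: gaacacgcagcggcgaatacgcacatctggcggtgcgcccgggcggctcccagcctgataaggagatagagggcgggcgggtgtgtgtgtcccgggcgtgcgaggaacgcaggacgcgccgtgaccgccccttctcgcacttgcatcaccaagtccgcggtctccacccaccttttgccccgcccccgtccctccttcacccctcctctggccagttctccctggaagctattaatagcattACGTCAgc
Dusp1: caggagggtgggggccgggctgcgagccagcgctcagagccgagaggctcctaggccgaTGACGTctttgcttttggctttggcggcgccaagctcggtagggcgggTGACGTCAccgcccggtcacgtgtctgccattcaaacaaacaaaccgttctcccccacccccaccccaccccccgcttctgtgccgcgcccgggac

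The letters TGACGT were present at −66 to −61 in *Fos*, at −56 to −51 in *Egr2* and at −8 to −3 in *Atf3*, counted from the start. In *Dusp1* they occurred at −191 to −186 and again within a full TGACGTCA at −143 to −136. These letters were thus found in 4 of the 8 matched genes, and in 7.51% of 32851 windows of the same length over all genes. They were chosen for the search after the sequences had been read, and *Egr2*, with 5 windows, had more chances to hold them. The *Egr2* window printed, that of start 3, held both marked motifs. Starts 4 and 5 of *Egr2* also held both, start 2 held a CArG box without TGACGT, and start 1 held neither. The CArG box was found in 1 of the 8 genes, *Egr2* (at −72 to −63 of the start shown), and in 1.63% of all windows. The full TGACGTCA was found in *Dusp1* alone of the 8 and in 1.79% of all windows, and TGACNTCA, which includes it, in *Dusp1* and *Jun* and in 8.83%. An EGR motif, GCGNGGGCG, was present in *Fosb* and *Nr4a1* (5.55% of all windows), a TATAAA in *Fos* and *Junb* (13.6%), and an AP-1 motif, TGANTCA, in none of the 8 (7.81%). All motifs were searched on both strands. A match is a description of the letters in the window and does not show binding.

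*Egr1*, the most widely studied EGR factor, was at 28.1, 33.4 and 55.1 CPM in Pre replicates 1, 2 and 3, at 75.0, 50.9 and 53.3 CPM in WL1, and at 29.7, 35.2 and 43.3 CPM in WL2. Pre replicate 3 reached into the WL1 range, and the WL2 libraries were all below the WL1 libraries. The log2 fold change at WL1 was 0.62 (SE 0.25, adjusted p = 0.166 by edgeR), and 0.96 without Pre replicate 3 (adjusted p = 0.0345).

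The remaining AP-1 genes gave smaller or less regular values. *Jun*, the DNA-binding partner of *Fos*, was at 79.3, 132 and 117 CPM in Pre, 147, 129 and 165 CPM in WL1 and 124, 125 and 140 CPM in WL2. Pre replicate 1 was the lowest of the 9 libraries, and the phases otherwise overlapped, with a log2 fold change of 0.42 at WL1 (SE 0.18, adjusted p = 0.174 by edgeR). *Junb*, an AP-1 gene often described as a brake on *Jun*, was at 31.6, 63.4 and 45.7 CPM in Pre, 51.4, 48.6 and 69.3 CPM in WL1 and 46.9, 33.3 and 31.8 CPM in WL2. The WL2 libraries lay below the WL1 libraries, while Pre spanned nearly the range of both (0.27 at WL1, SE 0.25, adjusted p = 0.548).

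*Fosb*, a *Fos* relative, was the least abundant member, with 2.65, 5.01 and 6.74 CPM in Pre, 6.13, 3.21 and 4.72 CPM in WL1 and 2.68, 3.51 and 12 CPM in WL2. The 3 phases overlapped throughout, and the log2 fold change at WL1 was −0.04 (SE 0.54, adjusted p = 0.973 by edgeR), a value that turns positive under 2 alternative scalings or designs. *Nr4a1*, known for roles in macrophages and in metabolism, was at 9.61, 18.5 and 12.7 CPM in Pre, 21.7, 12.8 and 13.6 CPM in WL1 and 7.56, 13.3 and 16.9 CPM in WL2. Its phases overlapped as well (0.24 at WL1, SE 0.32, adjusted p = 0.698). *Ier2* was the steadiest of the 10 genes, at 23.4, 33.6 and 22.4 CPM in Pre, 28.7, 28.7 and 27.1 CPM in WL1 and 24.5, 24.5 and 21.9 CPM in WL2. The WL2 libraries of *Ier2* were below the WL1 libraries by a small margin, and its log2 fold change at WL1 was 0.09 (SE 0.15, adjusted p = 0.760).

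Against Pre, 3 of the 10 genes rose at WL1 and none fell, where 2.60% of the genes tested rose, 4.69% fell and 7.29% passed in either direction. At an unadjusted p under 0.05 there were 6 of 10 genes, against 24.3% of all genes. In 4 of the 10 genes (*Fos*, *Egr2*, *Atf3* and *Dusp1*) the 3 WL1 libraries were all higher than the 3 Pre libraries, which held for 14.7% of all genes. The median log2 fold change of the 10 genes was 0.52, and that of all genes tested was 0.02. Leaving out 1 library gave 1 to 4 genes past the threshold, with 1 gene, *Dusp1*, past it without Pre replicate 1, without Pre replicate 2 (the library high in lymphocyte markers) and without WL1 replicate 3. Over all genes, 562, 986 and 512 passed in those fits, in the same order, beside 1350 with all libraries.

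At WL2 against Pre, 0 of the 10 genes passed by edgeR, where 3.35% of all genes rose and 6.66% fell. An unadjusted p under 0.05 was found for 1 gene, *Dusp1* (26.0% of all genes), and DESeq2 called 1 gene, also *Dusp1* (0.58, adjusted p = 0.0146), and limma 0. Over all genes, DESeq2 called 2717 here, and limma 1820 on log2(FPKM + 1) and 1771 on log2(FPKM + 0.1). *Dusp1* was also the only gene whose WL2 libraries were all above Pre, at 1.5-fold, while 15.1% of all genes were higher without overlap. The median log2 fold change of the 10 genes was −0.01, beside 0.01 for all genes. Values ran from −0.33 for *Junb* (SE 0.25, adjusted p = 0.434) to 0.60 for *Atf3* (SE 0.45, adjusted p = 0.423), the latter −0.12 without WL2 replicate 1.

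At WL2 against WL1, 0 of the 10 genes passed by edgeR, where 2.37% of all genes fell and 1.31% rose. An unadjusted p under 0.05 was found for 5 genes (21.4% of all genes), and DESeq2 called 2, *Fos* (−1.4, adjusted p = 0.00106) and *Egr2* (−1.16, adjusted p = 0.00455), and limma 0. Over all genes, DESeq2 called 1935 here, and limma 537 on log2(FPKM + 1) and 546 on log2(FPKM + 0.1). By edgeR, *Fos* differed by −1.41 (SE 0.35, adjusted p = 0.0532), *Egr2* by −1.16 (SE 0.31, adjusted p = 0.0649), *Atf3* by −1.31 (SE 0.45, adjusted p = 0.124), *Egr1* by −0.73 (SE 0.25, adjusted p = 0.127) and *Dusp1* by −0.35 (SE 0.16, adjusted p = 0.257). In 5 genes (*Fos*, *Junb*, *Egr1*, *Egr2* and *Ier2*) every WL2 library was below every WL1 library, and 16.4% of all genes were lower in this way. Without WL2 replicate 1, the library in which *Atf3* and *Egr2* were highest within WL2, 3 genes passed, namely *Fos* (−1.67), *Egr2* (−1.66) and *Atf3* (−2.03). Over all genes, 1351 passed in this fit and 37 without WL2 replicate 2, beside 242 higher and 439 lower with all libraries. All 3 comparisons share libraries in pairs, so that they are not independent of each other.

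**Figure D2:**
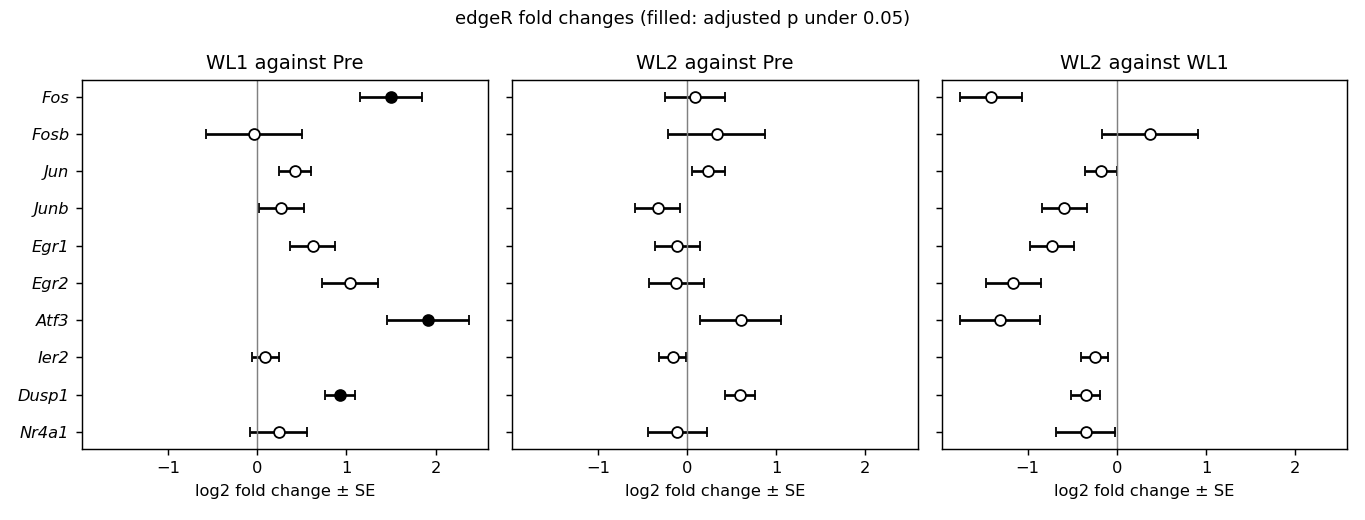
edgeR log2 fold change with SE of each gene in the 3 comparisons. Filled points passed an adjusted p under 0.05. The filled points are *Fos* (1.5), *Atf3* (1.92) and *Dusp1* (0.93) at WL1 against Pre, and there is none in the other comparisons.

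On the length-adjusted scale of the deposited FPKM values, the order of the genes in Pre was *Dusp1* (40.5 ± 7.18), *Jun* (32.3 ± 8.10), *Atf3* (21.5 ± 6.78), *Junb* (19.1 ± 6.53), *Fos* (17.2 ± 7.21), *Ier2* (16.3 ± 3.85), *Egr1* (8.14 ± 3.01), *Egr2* (3.96 ± 0.949), *Nr4a1* (3.64 ± 1.21) and *Fosb* (0.722 ± 0.309; SD, n = 3). From *Dusp1* to *Ier2* each gene overlapped with its next neighbour in this order, as did *Egr2* and *Nr4a1*, so that only the steps below *Ier2*, *Egr1* and *Nr4a1* were free of overlap. In WL1 the order began with *Atf3* (80.2 ± 34.6), *Dusp1* (76.4 ± 15.1), *Fos* (48.0 ± 15) and *Jun* (42.7 ± 5.42), each overlapping with the next, and each of the lower genes from *Junb* (22.7 ± 4.55) down was separate from its neighbour. In WL2 *Dusp1* (60.8 ± 5.50) was separate from *Jun* (38.1 ± 3.12), and *Atf3* (32.4 ± 21.5) overlapped with both *Jun* and *Fos* (18.2 ± 6.44). The last place was held by *Fosb* in each phase.

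3 of the genes share exon bases in GENCODE M21 with a neighbour on the other strand. *Dusp1* (chromosome 17) lies across *Ergic1*, with 11 bases in common, *Junb* (chromosome 8) shares 173 with *Prdx2*, and *Jun* (chromosome 4) shares 232 with the non-coding *Junos*. The strand setting of the counting was not found in the labels or methods, so that reads in the shared bases cannot be assigned with certainty. At WL1 the log2 fold change of *Ergic1* was −0.05 (SE 0.12, adjusted p = 0.850 by edgeR), beside 0.93 for *Dusp1*. *Prdx2* gave −0.19 (SE 0.13, adjusted p = 0.384) and *Junos* −0.50 (SE 0.34, adjusted p = 0.393). The pseudogene *Gm8225*, which lies on the other strand across *Dusp1* without shared exon bases and had 66 reads over the 9 libraries, gave 2.07 (SE 0.60, adjusted p = 0.0649).

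Libraries of the same phase differed more in these genes than in a typical gene. The SD of log2 CPM within phases, pooled over the 3 phases, had a median of 0.415 over the 10 genes, compared with 0.265 over all genes tested and 0.215 over the 14639 genes with a mean of at least 1 CPM. *Fosb* (0.788), *Atf3* (0.688) and *Fos* (0.538) varied most. *Jun* (0.252), *Dusp1* (0.225) and *Ier2* (0.194) varied least, near the level of all genes. The highest library exceeded the lowest by 8.09-fold in *Atf3*, by 5.86-fold in *Fos* and by 1.53-fold in *Ier2*. Pre replicate 1 was the lowest of its phase in 9 of the 10 genes, WL1 replicate 2 in 8, and WL1 replicate 3 was the highest of its phase in 6.

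The 10 genes varied together to differing degrees. Over the 9 libraries, which share the phase differences, the median Pearson correlation of log2 CPM over the 45 pairs was 0.53, with 39 pairs positive, and the median over all pairs of genes with a mean of at least 1 CPM was 0.00. For the deviations from the phase means, the median was 0.39 with 32 pairs positive. *Fos* and *Atf3* correlated at 0.93 over the libraries and 0.82 in the deviations, *Egr2* and *Atf3* at 0.92 and 0.90, *Fos* and *Egr2* at 0.91 and 0.74, and *Junb* and *Egr2* at 0.85 and 0.84. *Fosb* was closest to *Nr4a1* over the libraries (0.68, and 0.76 in the deviations) and to *Egr1* in the deviations (0.79). *Atf3* and *Nr4a1* had a deviation correlation of −0.53. The points are 9 libraries that also share composition of the tissue, and no test was made.

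**Figure D3:**
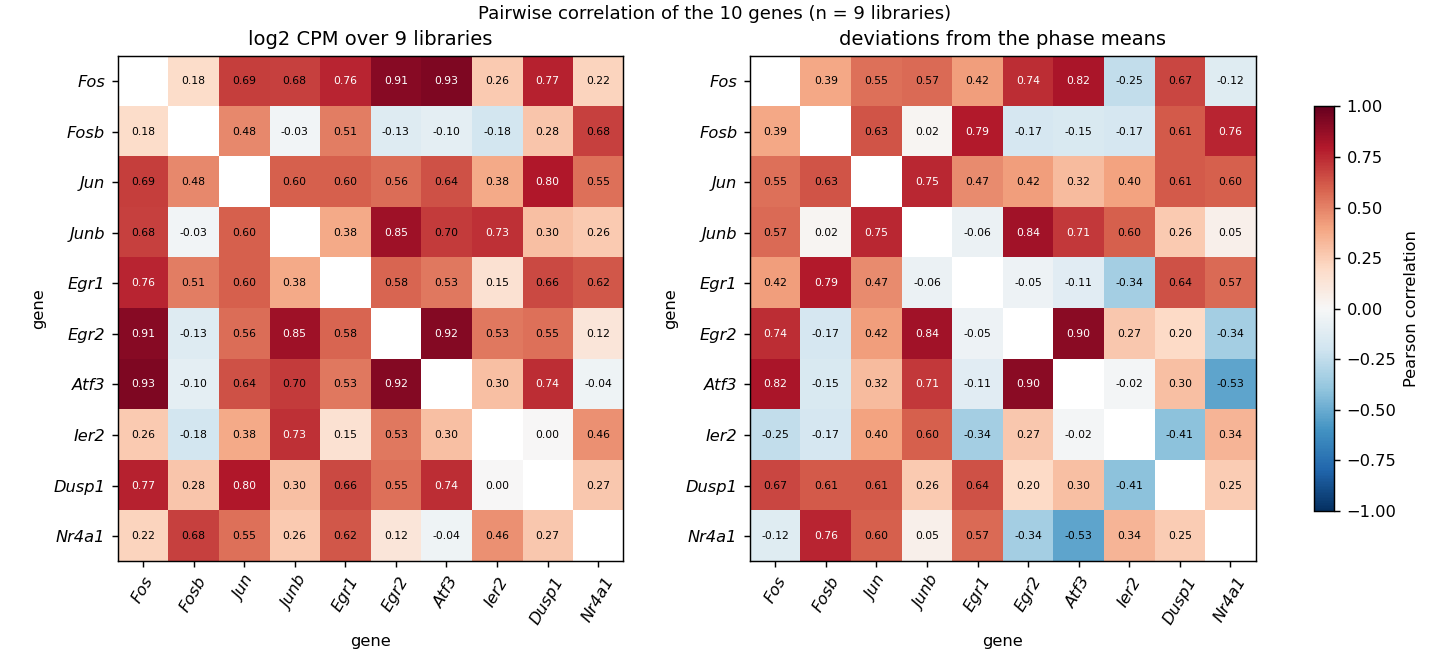
Pearson correlation between each pair of the 10 genes over 9 libraries, for log2 CPM (left) and for deviations from the phase means (right); the diagonal is left blank. *Fos*, *Egr2* and *Atf3* form the pairs with 0.91 to 0.93 on the left, and *Fosb*, *Egr1* and *Nr4a1* are nearer to each other than to *Atf3* on the right.

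The 8 macrophage markers (*Adgre1*, *Cd68*, *Csf1r*, *Mrc1*, *Lyz2*, *Itgam*, *Fcgr1* and *C1qa*) were high in the same libraries as several of the 10 genes. Their summed level was 1400, 2590 and 2220 CPM in Pre replicates 1, 2 and 3, 2590, 3040 and 4880 CPM in WL1, and 2780, 1560 and 1740 CPM in WL2. *Lyz2* alone was at 1120 ± 294 CPM in Pre, 1860 ± 693 CPM in WL1 and 1090 ± 385 CPM in WL2 (SD, n = 3), so that it weighs most in the sum. The mean was higher at WL1 than in Pre for 7 of the 8 markers, with 0 past the adjusted threshold by edgeR and 5 at an unadjusted p under 0.05 (24.3% of all genes). Of the 8 markers, 4 were higher without overlap (14.7% of all genes), and DESeq2 called 4 and limma 0. Over all genes, DESeq2 called 2344 at WL1 against Pre. *Cd68*, a lysosomal protein of macrophages, had the largest change (1.52, SE 0.42, adjusted p = 0.0566 by edgeR), and none of the 8 markers was at 0 in any phase, the lowest being *Fcgr1* with 4.86 CPM. At WL2 against WL1, all 8 markers were lower in the mean, 6 of them at an unadjusted p under 0.05 (21.4% of all genes). Of the 8, 5 were lower there without overlap (16.4% of all genes). By edgeR and limma 0 passed, and DESeq2 called 2 (1935 over all genes). Over the 9 libraries, the correlation with the macrophage sum was 0.92 for *Egr2* and *Atf3*, 0.90 for *Junb*, 0.87 for *Fos*, 0.70 for *Jun*, 0.58 for *Dusp1*, 0.51 for *Ier2*, 0.45 for *Egr1*, 0.09 for *Nr4a1* and −0.03 for *Fosb*. In the deviations it was 0.92 for *Junb*, 0.90 for *Atf3*, 0.87 for *Egr2*, 0.73 for *Fos*, 0.63 for *Jun*, 0.35 for *Dusp1*, 0.31 for *Ier2*, −0.01 for *Fosb*, −0.11 for *Egr1* and −0.22 for *Nr4a1*. The part of macrophage content in the changes of these genes was not tested.

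**Figure D4:**
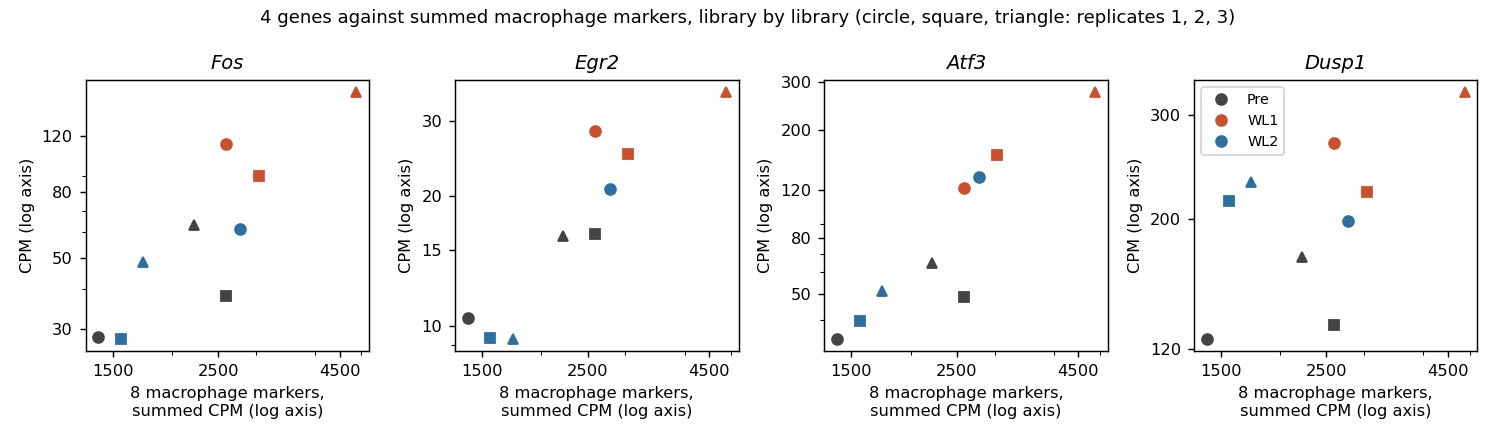
CPM of *Fos*, *Egr2*, *Atf3* and *Dusp1* in each of the 9 libraries against the summed CPM of 8 macrophage markers in the same library, both on log axes. WL1 replicate 3 is at the upper right in each panel, and the points of *Egr2* and *Atf3* lie closest to a line, whereas in *Dusp1* the Pre libraries lie below WL2 libraries of a similar marker sum.

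The summed adipocyte markers were 38300, 31000 and 31100 CPM in Pre, 25400, 28100 and 21900 CPM in WL1, and 32900, 29800 and 28600 CPM in WL2. All 8 were lower in the mean at WL1, and 3 fell past the threshold, where 4.69% of all genes fell and 2.60% rose. These were the adipokine gene *Lep* (−0.83, SE 0.13, adjusted p = 0.00661 by edgeR) and the lipid droplet genes *Cidec* (−0.84, SE 0.11, adjusted p = 0.00236) and *Plin1* (−0.52, SE 0.13, adjusted p = 0.0400). DESeq2 called 5 of the 8 at WL1, and limma 2 on log2(FPKM + 1) and 1 on log2(FPKM + 0.1). Over all genes, the counts of these were 2344, 1301 and 1198, in that order. The correlation with the adipocyte sum over the 9 libraries was −0.90 for *Jun*, −0.89 for *Dusp1*, −0.82 for *Fos*, −0.72 for *Atf3* and −0.66 for *Egr2*. In the deviations it was −0.89 for *Jun*, −0.84 for *Dusp1*, −0.50 for *Fos*, −0.20 for *Atf3* and −0.20 for *Egr2*. Erythroid markers had sums of 989 to 1620 CPM in Pre, 360 to 596 CPM in WL1 and 421 to 784 CPM in WL2, with 4 of 5 lower past the threshold at WL1, and reads on mitochondrial genes made up 3.15% to 3.57%, 1.86% to 2.03% and 2.28% to 2.88%. Mesothelium markers ranged from 38.3 to 682 CPM over the libraries, with 0 of 7 past the threshold at WL1 by edgeR (0 at an unadjusted p under 0.05, 0 by DESeq2 and limma). At WL2 against WL1, all 7 were higher in the mean (median log2 fold change 1.89). All 7 had an unadjusted p under 0.05 there (21.4% of all genes), with 0 past the threshold by edgeR, DESeq2 or limma. The deviations of the mesothelium sum correlated at 0.88 with *Jun*, 0.80 with *Nr4a1* and 0.75 with *Egr1*. Over the 9 libraries, these correlations were 0.43, 0.38 and 0.05. By edgeR, 2 of 8 mural, 1 of 4 neutrophil and 1 of 4 skeletal muscle markers fell past the threshold at WL1, and none rose. Of 8 endothelial, 8 fibroblast and 8 lymphocyte markers, 0 passed in either direction at WL1 by edgeR, DESeq2 or limma. By edgeR, 0, 2 and 2 had an unadjusted p under 0.05 there, beside 24.3% of all genes. DESeq2 gave an adjusted p for only 3 of the 8 lymphocyte markers. The part of these cell types and of the mitochondrial share in the results was not tested.

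A wider set of 33 other immediate early and primary response genes, of which 32 were tested, was examined next. Of these, 4 rose and none fell at WL1 against Pre (median 0.16), beside 2.60% of all genes that rose. *Klf6*, a zinc finger transcription factor, rose by 0.70 (SE 0.10, adjusted p = 0.00445), *Plk2*, a kinase induced by serum, by 1.04 (SE 0.18, adjusted p = 0.0085), and *Myc* by 0.72 (SE 0.16, adjusted p = 0.0244) by edgeR. The fourth was *Mafk* (0.52, SE 0.13, adjusted p = 0.0425), named after its values were seen. The call of *Myc* was lost without Pre replicate 1, WL1 replicate 1 or WL1 replicate 3 (adjusted p up to 0.0875), with the replicate block and with only the 2 phases compared. At WL2 against Pre, where 3.35% of all genes rose and 6.66% fell, 4 rose and 1 fell (median 0.20), including *Myc* (0.96, SE 0.16, adjusted p = 0.00423), *Klf4* (0.75, SE 0.14, adjusted p = 0.0092), *Nfkbia*, the inhibitor of NF-κB (0.50, SE 0.11, adjusted p = 0.0169), and *Klf6* (0.44, SE 0.10, adjusted p = 0.0245). *Klf6* did not pass there without Pre replicate 1 or 2 or WL2 replicate 2 or 3 (adjusted p up to 0.0978), nor *Nfkbia* without Pre replicate 1 or WL2 replicate 3 (up to 0.0714). At WL2 against WL1, where 1.31% of all genes rose and 2.37% fell, 1 rose and 3 fell (median −0.06), with *Plk2* at −0.94 (SE 0.18, adjusted p = 0.0233), *Maff*, a small MAF protein, at −0.56 (SE 0.11, adjusted p = 0.0298) and *Nfkbia* at 0.53 (SE 0.11, adjusted p = 0.0306). Each of these 3 passed in 4 of 9 fits without 1 library and was lost without any single WL1 library and without WL2 replicate 2 or 3, with adjusted p up to 0.122, 0.131 and 0.126, and the calls of *Maff* and *Nfkbia* were also lost with the replicate block. Over all genes, 130 to 262 passed in the fits without a WL1 library, and 37 and 101 without WL2 replicate 2 and 3.

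**Figure D5:**
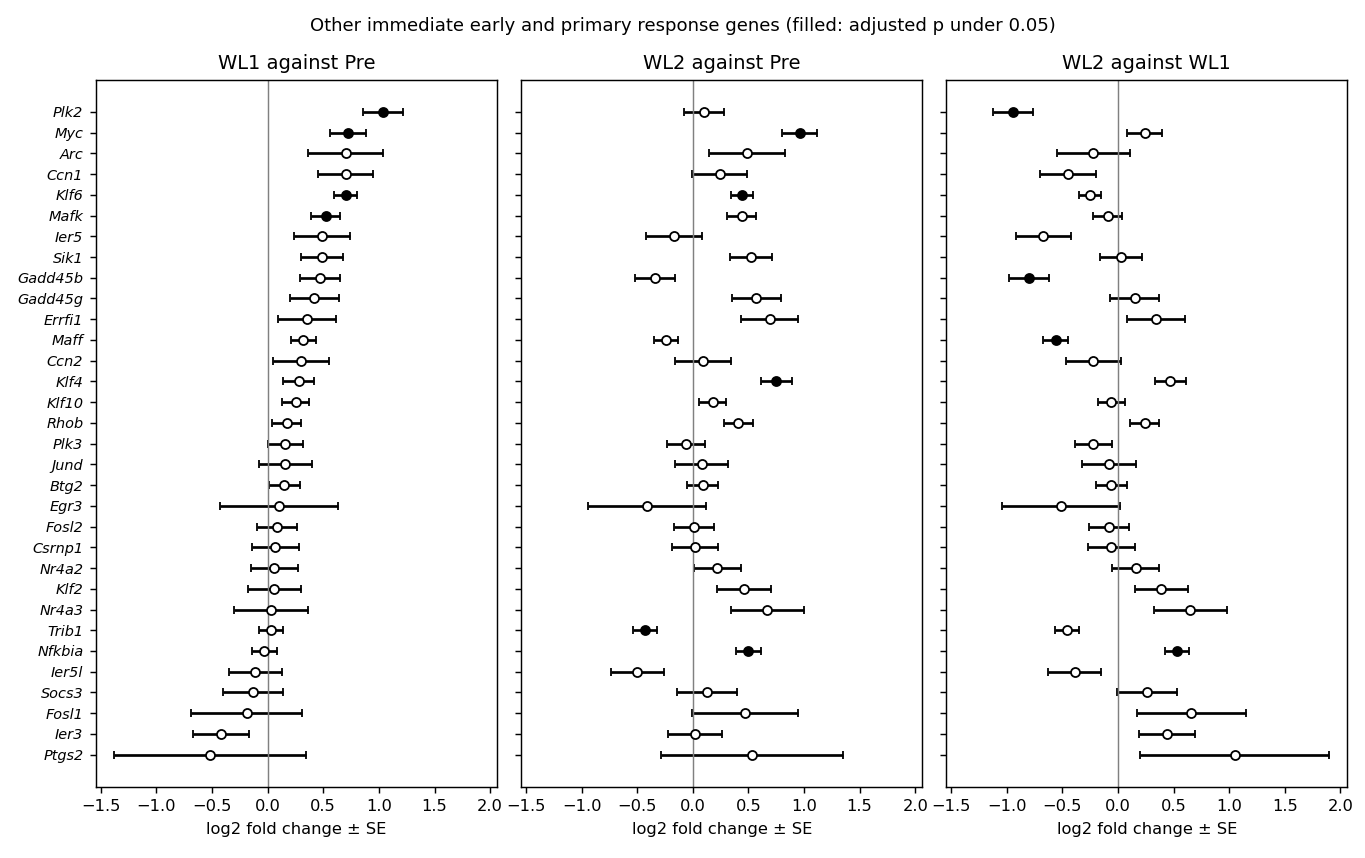
edgeR log2 fold change with SE of 32 other immediate early and primary response genes in the 3 comparisons, ordered by WL1 against Pre. Filled points passed an adjusted p under 0.05. *Plk2* is at the top at WL1 (1.04) and among the lowest at WL2 against WL1 (−0.94), whereas *Myc* is filled at both WL1 (0.72) and WL2 (0.96) against Pre.

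Among 20 upstream kinases, transcription factors and dimer partners, 0 passed at WL1 by edgeR. At an unadjusted p under 0.05 there were 5, beside 24.3% of all genes. DESeq2 called 1 of the 20, beside 2344 over all genes, and limma 0. At WL2 against Pre, where 6.66% of all genes fell and 3.35% rose, 1 fell by edgeR. This was the MAP kinase kinase gene *Map2k2* (−0.47, SE 0.13, adjusted p = 0.0455). This call held in 3 of 9 fits without 1 library (those without WL1 replicate 1, WL1 replicate 3 or WL2 replicate 1), with adjusted p up to 0.166, and was lost with upper quartile factors, library totals, the replicate block or only the 2 phases compared. Of 12 other MAP kinase phosphatases and Sprouty or Spred inhibitors, 0 passed at WL1 by edgeR, DESeq2 or limma. By edgeR, 4 had an unadjusted p under 0.05 there, beside 24.3% of all genes. At WL2 against Pre, the phosphatase genes *Dusp4* (−1.18, SE 0.20, adjusted p = 0.00462) and *Dusp10* (−0.67, SE 0.11, adjusted p = 0.00484) and the Sprouty gene *Spry4* (−0.54, SE 0.14, adjusted p = 0.0367) fell, and *Spry1* rose (0.67, SE 0.15, adjusted p = 0.0179). Thus 3 of the 12 fell and 1 rose by edgeR, beside 6.66% and 3.35% of all genes. The calls of *Dusp4* and *Dusp10* held in all 9 fits without 1 library. *Spry4* passed in 3 of them (those without Pre replicate 2, WL1 replicate 1 or WL1 replicate 3), with adjusted p up to 0.121, and was lost with library totals or the replicate block, and *Spry1* was lost without WL2 replicate 2 or 3 (up to 0.0826). *Dusp4* was also lower at WL2 than at WL1 (−0.93, SE 0.20, adjusted p = 0.0343), a call lost without WL1 replicate 1 or 2 or WL2 replicate 2 or 3 (up to 0.158) and by limma on log2(FPKM + 1). Of 8 genes for AU-rich element binding proteins, which control the decay of short-lived transcripts, and EGR corepressors, 0 passed in any pairwise comparison by edgeR, DESeq2 or limma (1 at an unadjusted p under 0.05 at WL1 and 2 in each other comparison by edgeR). Such a p was found for 24.3% of all genes at WL1, 26.0% at WL2 against Pre and 21.4% at WL2 against WL1. *Zfp36*, which encodes such a decay factor, was at 0.38 at WL1 (SE 0.13, adjusted p = 0.110), and *Zfp36l1* at 0.41 at WL2 (SE 0.17, adjusted p = 0.148).

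Of the 10 heat shock genes, 0 passed in any pairwise comparison by edgeR or limma, while DESeq2 called 1 in WL1 relative to Pre and 1 in WL2 relative to WL1, and 1 gene had an unadjusted p under 0.05 by edgeR in each of these. Over all genes, DESeq2 called 2344 and 1935, and 24.3% and 21.4% had an unadjusted p under 0.05 by edgeR, in the same order. In the mean, 7 of the 10 were higher and 3 lower at WL1 than in Pre. *Hspb1*, 1 of the lower genes and named after its values were seen, was at 219 ± 8.23 CPM in Pre (SD, n = 3). It was at 161 ± 17.4 CPM in WL1 and 233 ± 40.7 CPM in WL2. At WL1 against Pre, the largest log2 fold change was that of the inducible chaperone gene *Hspa1b* (0.76, SE 0.49, adjusted p = 0.370), which was 0.07 when WL1 replicate 3 was left out and 1.33 when Pre replicate 2 was. The summed heat shock level was 2190 to 3210 CPM in Pre, 2710 to 3490 CPM in WL1 and 2500 to 3380 CPM in WL2. *Hspa8* alone was at 1440 ± 346, 1810 ± 271 and 1580 ± 257 CPM (SD, n = 3), so that this gene weighs most in the sum. *Hspa1b* was at 20.8 ± 12.6, 35.4 ± 23.5 and 30.8 ± 8.52 CPM in the same order. The deviations of the sum correlated at 0.85 with *Fos* and 0.83 with *Atf3*, and at −0.54 with *Ier2*. Over the 9 libraries, the same correlations were 0.69, 0.73 and −0.35. Of 9 tested glucocorticoid response genes, 2 rose at WL1, *Pdk4*, an inhibitor of pyruvate dehydrogenase (1.69, SE 0.25, adjusted p = 0.00453 by edgeR), and the kinase gene *Sgk1* (0.73, SE 0.15, adjusted p = 0.0213), and 4 rose at WL2, namely *Sgk1* (1.19), *Pdk4* (1.36), *Cebpd* (0.89) and *Klf9* (0.71), beside 2.60% and 3.35% of all genes. In the mean, 5 of the 9 were higher and 4 lower at WL1 than in Pre, and all 9 were higher at WL2. The 4 lower, of which 0 passed, included *Fkbp5* (58.2 ± 11.8 CPM in Pre, 47.6 ± 14.7 CPM in WL1). *Tsc22d3* was also among them (288 ± 32.2 and 242 ± 79.3 CPM). These 2 were named after their values were seen. The call of *Sgk1* at WL1 was lost without Pre replicate 1 or 2 or WL1 replicate 2 or 3 (adjusted p up to 0.0845). At WL2 that of *Cebpd* was lost without WL2 replicate 3 (0.0819), and that of *Klf9* without Pre replicate 1 or 2 or WL2 replicate 3 (up to 0.0836).

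The genes most like the 10 genes over the 9 libraries, by Pearson correlation of log2 CPM with the mean of their z scores, were *Tns3* (0.978), *Nup160* (0.969), *Itgav* (0.963), *Cnot6* (0.962), *H2-M2* (0.961), *Rassf2* (0.954), *Prrx1* (0.952), *Plagl2* (0.951), *Chd5* (0.950) and *Ptpn23* (0.950). The mean z score itself was lowest in Pre replicate 1 (−1.27) and highest in WL1 replicate 3 (1.02). *Tns3*, which encodes a focal adhesion protein, was at 91.7 ± 24.5 CPM in Pre, 153 ± 28.3 CPM in WL1 and 101 ± 18.0 CPM in WL2 (SD, n = 3). *Itgav*, the integrin αV chain, was at 44.3 ± 10.6, 60.6 ± 7.64 and 43.2 ± 3.71 CPM in the same order. These genes were picked for their likeness among many, so that the correlations are a description.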

How the data were processed

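Epididymal adipose RNA was sequenced in 9 libraries, 3 each of Pre, WL1 and WL2. The authors deposited raw read counts per gene and FPKM values for the same libraries in 2 tables. The submitters' processing notes name CASAVA, HISAT2, HISAT and TopHat2 and the builds GRCm38 and mm10. Only 1472 of 52073 gene positions equalled those of GENCODE M21 (GRCm38). The positions of the count table were therefore used only to find genes overlapping the members, and shared exon bases were taken from GENCODE M21. The counting program and its strand setting were not found in the labels or methods. Counts were tested with edgeR 4.0.16 (R 4.3.3): genes with 0.5 CPM in at least 1 library (18510), TMM factors, 1 model of all 9 libraries, quasi-likelihood tests, Benjamini-Hochberg adjustment over all genes tested, and a threshold of 0.05. DESeq2 1.42.0, limma 3.58.1 on log2(FPKM + 1) and log2(FPKM + 0.1), other filters and scalings, and leaving out each library were alternatives. No libraries were identical. The scripts were tested on simulated data. The members and lists were chosen with earlier results of these data known. All 10 members were named. Of each other list, up to 6 genes past the threshold with the smallest p were named, and where none passed, the gene with the largest change at WL1 and at WL2. In addition, the 10 protein-coding genes most correlated with the members were named. Motifs were searched in RefSeq promoter windows.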

Additional observations from a re-analysis of the deposited data

How the results depend on the processing

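The count at WL1 against Pre was 3 genes, 2 to 4 under the alternatives in filter, scaling, tool or design and 1 to 4 without 1 library. At WL2 against Pre it was 0, and 1 (*Dusp1*) with no filter, the 3-library filter, upper quartile factors, library totals, DESeq2 or the replicate block, and 0 to 1 without 1 library. At WL2 against WL1 it was 0, and 4 with no filter, 2 with DESeq2, 1 each with the 3-library filter, the replicate block or only the 2 phases compared, and 0 to 3 without 1 library. Among the 3 phases it was 4, 2 with the replicate block and 2 with limma at either pseudocount, and 1 to 4 without 1 library. All genes called also varied with the setting. At WL1 against Pre they were 1350 in the main run, 844 to 2344 under the alternatives and 512 to 1500 without 1 library. At WL2 against WL1, with 242 higher and 439 lower in the main run, they were 330 to 1935 and 37 to 1351. At WL2 against Pre (620 higher, 1233 lower) they were 1314 to 2717 and 743 to 1688. Among the 3 phases (2417) they were 1560 to 4104 and 1062 to 2475. The cause of these differences was not tested.

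Same-numbered libraries had deviation correlations from −0.425 to 0.159, 1 of 9 over 0.1, and not every library correlated best with its own number. These values show no pairing of the samples by replicate number, but with 3 libraries per phase they cannot exclude one. With the replicate block, 2 genes passed at WL1 against Pre, and *Atf3* was at 1.89 (adjusted p = 0.0626).

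Library totals without factors put the median of all genes at 0.12 at WL1 and 0.16 at WL2 against Pre, where the main run had 0.02 and 0.01. Beside that shift, these values turned sign: at WL1 *Fosb* (0.06, and 0.08 with the replicate block), *Nfkbia* (0.07) and *Cebpd* (0.01), and at WL2 against Pre *Egr1* (0.04), *Egr2* (0.02) and *Nr4a1* (0.04). *Egr2* at WL1 passed with library totals (1.13), no filter (1.04), DESeq2 (1.02) and only the 2 phases compared (1.02). Without 1 library, values that turned sign ranged at WL1 from −0.33 to 0.28 for *Fosb*, −0.02 to 0.30 for *Ier2*, −0.04 to 0.52 for *Nr4a1*, −0.08 to 0.04 for *Nfkbia*, −0.03 to 0.34 for *Zfp36l1* and −0.28 to 0.08 for *Cebpd*. At WL2 against Pre they ranged from −0.17 to 0.47 for *Fos*, −0.64 to 0.69 for *Fosb*, −0.30 to 0.23 for *Egr1*, −0.62 to 0.07 for *Egr2*, −0.12 to 0.91 for *Atf3*, −0.27 to 0.05 for *Ier2*, −0.38 to 0.17 for *Nr4a1*, and −0.08 to 0.24 for *Plk2*, and at WL2 against WL1 from −0.59 to 0.73 for *Fosb* and −0.50 to 0.51 for *Hspa1b*.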
